A study of Mus musculus with 3 samples.

Results

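The nuclear genes of oxidative phosphorylation were taken as all genes of the 3 deposited RNA matrices whose symbols start with Ndufa, Ndufb, Ndufc, Ndufs, Ndufv, Uqcr, Cox4 to Cox8 or Atp5. The rule found 86 genes, and each of them was present in all 3 matrices, which list 18935 genes for the brain with metastases, 17129 for the naive brain and 16619 for blood. Grouped by symbol, they comprise 37 subunits of complex I, 8 of complex III, 11 of complex IV and 16 of complex V, 8 complex I assembly factors whose symbols share the Ndufaf stem, and 6 isoforms known for narrow expression. Ndufa4, first assigned to complex I and now known as a subunit of complex IV, was counted with complex I after its symbol. Atp5s, which RefSeq names Dmac2l, was likewise counted with complex V after its symbol alone. The 13 protein-coding genes of the mitochondrial genome, whose symbols start with mt-, were kept apart for comparison.

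The respiratory chain sits in the inner mitochondrial membrane. Complex I takes electrons from NADH, complex III passes them through cytochrome c to complex IV, which reduces oxygen, and the proton gradient that results drives the ATP synthase, complex V. A few core subunits are encoded by mitochondrial DNA and all others by nuclear genes, so that each of these complexes is built from 2 genomes. Several nuclear subunits of complex IV come in isoforms, one made in most cells and another restricted to tissues such as muscle, lung or testis.

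The study asked how loss of microglia, the resident macrophages of the brain, alters the immune cells of the mouse brain with and without metastases. Immune cells from 1 brain hemisphere, enriched on a Percoll gradient, or blood cells freed of red cells were stained with a pool of 35 antibodies, given 1 hashing tag per sample and joined, as 8 samples, in 1 droplet run read from the 3′ end of transcripts. The animals were female C57Bl/6 mice, 2-3 months of age, and every mouse received tamoxifen, then a break of 1 month, then diphtheria toxin. Mice with metastases had been injected through the carotid artery with E0771, a mouse mammary tumour line, about 2 weeks earlier.

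The depleted arm carried Cx3cr1CreERT-ROSA-iDTR, in which a tamoxifen-dependent recombinase driven by the Cx3cr1 gene switches on a diphtheria toxin receptor, and the control arm carried Cx3cr1CreERT without the receptor. Cx3cr1 is active in monocytes as well as microglia, and the submitters state that microglia remained in depleted samples after enrichment. The naive brain had 1868 cells labelled depleted and 785 labelled control. The blood of mice with metastases had 1553 cells labelled depleted and 1371 labelled control. The 5933 cells of the brain with metastases came without arms and form 1 pooled sample. Each arm of a tissue is therefore 1 hashed sample, so that no test between groups was possible. All values below are levels, ratios and counts, and their 95% exact intervals cover counting error only.

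Depth and labels limit all of these values. The median cell had 13647 corrected UMIs (unique molecular identifiers) and 3308 detected genes for the brain with metastases, 9613 and 2738 for the naive brain, and 5118 and 1813 for blood. The same droplet barcode was listed for more than 1 tissue in 17.1% of cells from the brain with metastases, 29.1% of naive brain cells and 28.5% of blood cells, so values without these shared droplets are given where they move a result. The arm labels went against the purpose of the depletion. Microglia-like cells made up 36.7% (34.5 to 39.0) of cells labelled depleted and 17.1% (14.5 to 19.9) of cells labelled control in the naive brain, and the Cx3cr1 level of those cells was 10.0 CP10k for the label depleted and 1.72 for the label control. CP10k is the number of corrected UMIs of a gene per 10000 corrected UMIs of all genes, summed over the cells of a class. Clusters are called by the type whose markers they carry, with "-like", and 12 of the 30 clusters made here for the brain with metastases kept no name. The blood matrix also held 468 microglia-like, 180 tumour-like and 19 choroid plexus-like cells, and the naive brain held 111 tumour-like cells, which goes against their tissue labels. Of these, 82.7%, 83.9%, 15.8% and 72.1% were shared droplets, in the same order. Choroid plexus is the tissue that secretes cerebrospinal fluid, and its cluster could also hold ependyma.

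The 86 genes together took 192 CP10k over all cells of the brain with metastases, against 163 for naive brain and 161 for blood. The level differed several fold between clusters. It was highest in choroid plexus-like cells, with 344 CP10k (340.2 to 347) in 87 cells of the brain with metastases and 629 (615 to 642) in the 19 such cells of the blood matrix. It was lowest in neutrophil-like cells of the blood, at 103 CP10k (102 to 104). Most clusters of the brain with metastases lay between these levels. The tumour-like cluster reached 236 CP10k, the mural-like cluster led by smooth-muscle genes (Acta2, Myh11, Tagln) 235, and the T cell-like clusters 209 and 231. Classical monocyte-like cells stood at 189.7, macrophage-like cells at 191 and nonclassical monocyte-like cells at 188 CP10k. Microglia-like clusters lay lower, at 133 and 144 CP10k. Microglia-like cells of the naive brain were lower still, at 122 CP10k (122 to 123).

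**Figure D1:**
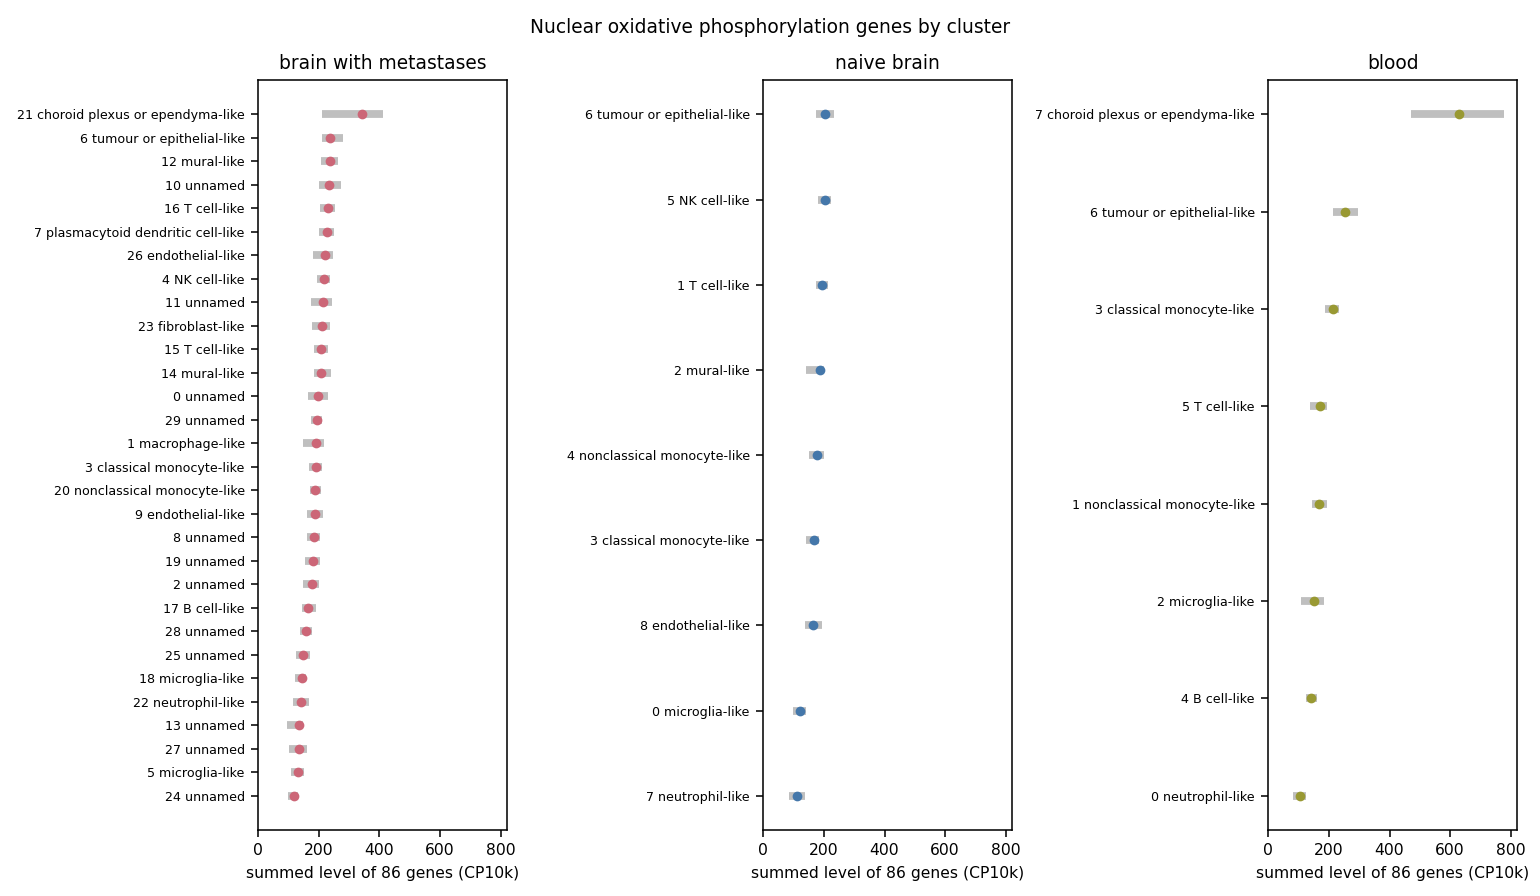
Summed level of the 86 nuclear oxidative phosphorylation genes in each cluster, in CP10k, for the brain with metastases, the naive brain and the blood. Points are pooled levels with 95% counting intervals and grey bars span the quartiles of single cells. Choroid plexus-like cells lie highest, at 344 CP10k in the brain with metastases, against 629 in the blood, and neutrophil-like cells of the blood lie low, at 103.

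Cells varied within the choroid plexus-like cluster too. The middle 50% of its cells in the brain with metastases ran from 211 to 410.3 CP10k, and of those in the blood from 472 to 778. Without shared droplets the levels of this cluster were 355 CP10k in the brain with metastases, against 626 in the blood. Neutrophil-like cells of the naive brain gave 113 CP10k, and 96.9 without the 65.7% of them that were shared. The lowest cluster of the brain with metastases, at 118 CP10k, was an unnamed one that carried markers of both neutrophils and microglia and was 71.0% shared droplets.

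Set against all other cells of its matrix, the choroid plexus-like cluster stood higher for nearly the whole gene set. A gene counts here as measured at 0.5 CP10k or more on at least 1 side, and ratios are log2 values taken after adding 0.1 CP10k to both sides. The summed level was 344 CP10k in choroid plexus-like cells and 189.8 in other cells of the brain with metastases, a ratio of 1.81 (1.79 to 1.83). Of 75 measured members 74 were higher, and 55 (73.3%) passed 1.5 fold, all upwards, against a background of 23.8% of all measured genes past 1.5 fold upwards and 52.6% past it in either direction. The median log2 ratio of the members was 0.75, while that of all measured genes was -0.10. The shift ran through every complex, with medians of 0.82 for complex I, 0.77 for complex III, 0.64 for complex IV and 0.73 for complex V.

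Microglia-like cells showed the opposite. In the brain with metastases they summed to 134 CP10k against 197 in other cells, a ratio of 0.681 (0.677 to 0.686). There 69 of 71 measured members were lower and 37 (52.1%) passed 1.5 fold downwards, with a background of 35.3% of all measured genes downwards and 59% either way. In the naive brain they summed to 122 CP10k against 182, a ratio of 0.671 (0.666 to 0.675), with 69 of 71 members lower and 41 (57.7%) past 1.5 fold downwards, beside a background of 25.2% downwards and 47.4% either way. The medians were -0.64 for members and -0.26 for all genes in the brain with metastases, and -0.61 and -0.15 in the naive brain. The share of members past 1.5 fold downwards was thus above that of all genes in both brains, and no member passed it upwards.

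Neutrophil-like cells were also low, and most so in blood. There the members summed to 103 CP10k against 184 in other blood cells, a ratio of 0.562 (0.556 to 0.567), with 67 of 71 lower and 52 (73.2%) past 1.5 fold downwards against a background of 49.9% downwards and 71.9% either way. The complexes differed, with median log2 ratios of -1.31 for complex I, -1.24 for complex III, -0.54 for complex IV and -1.0 for complex V. In the naive brain neutrophil-like cells had 113 CP10k against 165, with 70 of 71 members lower, 36 (50.7%) past 1.5 fold downwards and a background of 42.6% downwards and 60.6% either way. In the brain with metastases they had 141 CP10k against 193, with 67 of 71 lower, 21 (29.6%) past 1.5 fold downwards and a background of 40.3% downwards and 60.2% either way. The member medians in those brains were -0.59 and -0.46, beside -0.42 and -0.37 for all genes. In the brain with metastases the share of members past 1.5 fold downwards was thus below that of all genes.

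The balance between complexes differed in tumour-like cells and in neutrophil-like cells of the blood. Over all cells of the naive brain, the only matrix for which overall shares are given here, complex I supplied 31.7% of the members' UMIs. Complex III supplied 9.90%, complex IV 26.5% and complex V 30.5%. In tumour-like cells complex V supplied more and complex IV less. The shares for complex V and complex IV were 34.4% and 21.6% with metastases, 35.5% and 23.0% in naive brain, and 35.8% and 21.5% in the blood matrix. Most tumour-like cells of the naive brain and of the blood matrix were shared droplets. In neutrophil-like cells of the blood the order was different, with 31.8% for complex IV and 28.1% for complex I.

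Single complex I genes stood on both sides of the median cluster in tumour-like cells. Besides the tumour-like cluster of 329 cells, 2 unnamed clusters of the brain with metastases carried 3 of the tumour markers, a cycling one of 600 cells and one of 261 cells led by Sox9 and Adm. In all 3 clusters 13 members stood more than 1.5 fold above the median cluster of that matrix, and 5 stood more than 1.5 fold below it. The same counts over all genes are not given, so whether the members differ from other genes here was not tested. These clusters were set apart after the values had been seen, and the counts are a description.

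The higher genes included catalytic and assembly parts. Atp5b, the catalytic beta subunit of complex V, had 10.8 CP10k in the tumour-like cluster, 10.8 in the cycling one and 9.20 in the third, against 4.85 in the median cluster. Ndufv1, the core subunit that binds NADH, had 1.88, 2.15 and 1.48 CP10k, against 0.70. The assembly factor Ndufaf2 had 1.09, 1.04 and 0.593 CP10k, against 0.236. Ndufa12, the subunit that takes the place of Ndufaf2 late in complex I assembly, had 3.09, 2.94 and 2.26 CP10k, against 1.27. Uqcrq, a small subunit of complex III, had 6.19, 6.34 and 6.58 CP10k, against 2.80. All of these lay well above the median cluster in all 3 clusters.

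The 5 lower genes were Ndufa1, Ndufa3, Ndufa6, Ndufb11 and Ndufaf3. Ndufa1 and Ndufb11 are accessory subunits of the membrane arm of complex I, and both lie on the X chromosome. Ndufa3, Ndufa6 and Ndufaf3 lie on chromosomes 7, 15 and 9. Cox7b, a member that also lies on the X chromosome, was not low. It had 3.24 CP10k in the tumour-like cluster, 3.14 in the cycling one and 2.56 in the Sox9-led one, against 2.46 in the median cluster. A part of the X chromosome in the low levels was not tested. Ndufa1 had 0.572, 0.447 and 0.394 CP10k in the same 3 clusters, against 1.51 in the median cluster. Ndufb11 had 1.13, 1.03 and 0.715 CP10k, against 2.22. Ndufa3, another accessory subunit, had 0.703, 0.551 and 0.335 CP10k, against 1.40. So 1 complex contained both genes that stood high and genes that stood low in the same cells. The few tumour-like cells of the naive brain gave the same picture, with 9.91 CP10k for Atp5b and 0.27 for Ndufa1, but 72.1% of them were shared droplets and so are no second sample. A difference in the correction of cells with very deep libraries was not tested: tumour-like cells of the naive brain had a median of 157758 raw UMIs, against 9617 over all its cells.

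**Figure D2:**
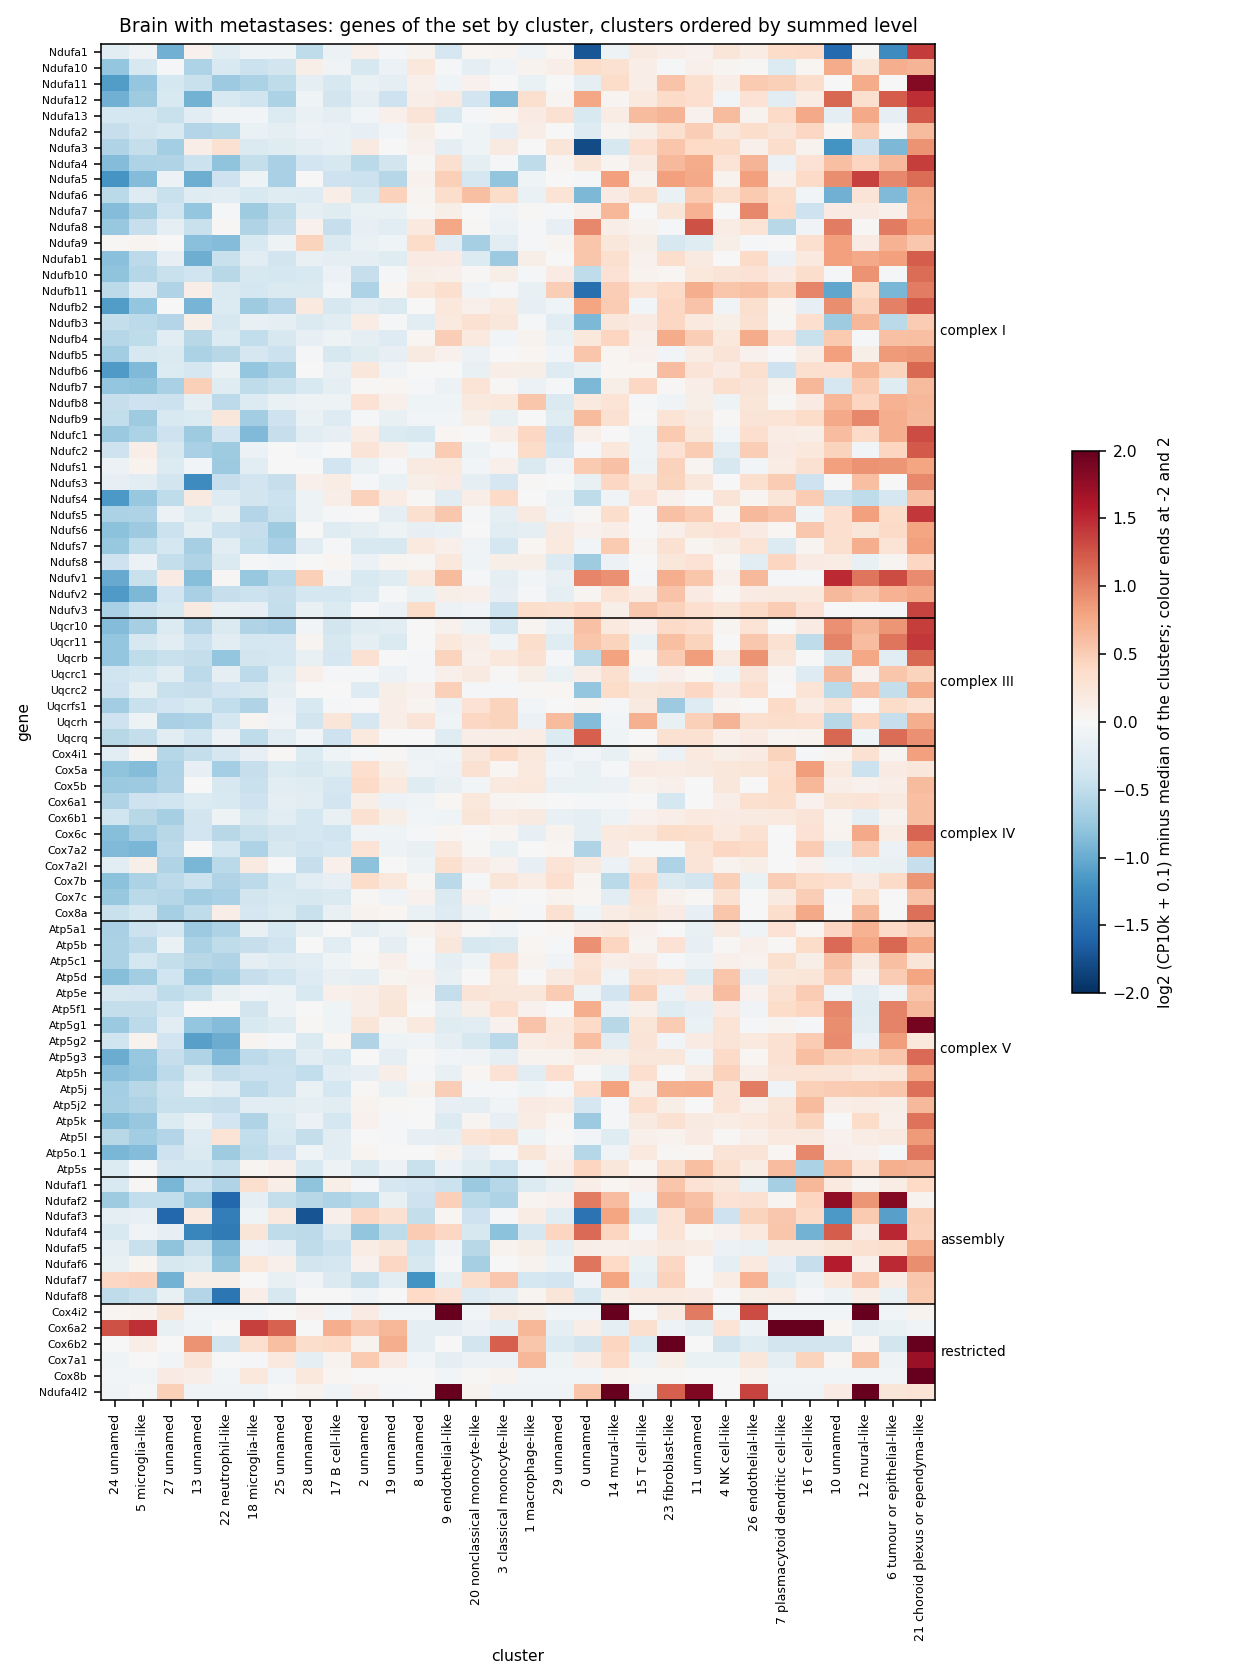
Level of members in each cluster as log2(CP10k + 0.1) minus the member's median over the clusters of the brain with metastases, with colours ending at 2 log2 units either way. Genes are grouped by complex. The choroid plexus-like column is high across complexes, tumour-like columns mix high and low genes within complex I, and single isoforms stand out in mural-like, plasmacytoid dendritic cell-like and choroid plexus-like columns.

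Choroid plexus-like cells stood above the median cluster for members of all groups. In the brain with metastases 84 of 86 members lay above the median cluster there and 53 had their highest level of all clusters of at least 30 cells there. The same 2 counts over all genes are not given. No minimum level was applied, so that Cox4i2 counted as above at 0.00866 CP10k, against 0.00397 in the median cluster. Against all other cells of the matrix, 45.1% of all measured genes were higher in this cluster, beside 74 of 75 measured members. Atp5g1, 1 of 3 genes for the same ring subunit of complex V, had 10.3 CP10k against 2.64 in the median cluster. Ndufa11, a membrane-arm subunit of complex I, had 5.87 against 1.57. Cox4i1 had 15.6 CP10k in these cells and Cox8a 14.9. The 2 members below the median cluster were Cox6a2 and Cox7a2l, a factor that joins complexes into supercomplexes, at 2.94 CP10k.

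The ubiquitous subunits of complex IV varied least. Only clusters of at least 30 cells were taken here. The highest of them exceeded the median cluster by a median of 1.59 fold for complex IV in the brain with metastases. This was 1.96 for complex I, 1.98 for complex III and 1.90 for complex V. In the naive brain these medians were 1.25, 1.47, 1.58 and 1.39 fold. The 6 restricted isoforms had a median of 19.6 fold over these clusters of the brain with metastases, from 2.82 to 57.8, and are taken up below. The cluster of 27 plasmacytoid dendritic cell-like cells, where Cox6a2 was highest, fell under the limit and is not in these values.

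The 3 genes for the ring subunit of complex V, whose mature proteins are the same, were used in different proportions. Over all cells of the brain with metastases Atp5g2 supplied 49.3% of their UMIs, Atp5g1 27.7% and Atp5g3 23.0%. In the choroid plexus-like cluster the order of the first 2 turned, with 46.9% for Atp5g1 and 26.9% for Atp5g2. In the larger microglia-like cluster Atp5g2 supplied 62.0%. In microglia-like cells of the naive brain its share was 60.4%.

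The mitochondrially encoded genes followed the nuclear ones only in part. Choroid plexus-like cells, highest for the nuclear genes, had 582 CP10k of mt- genes in the brain with metastases, against 511 over all cells. That was above each class of this matrix compared below, from 247 CP10k in classical monocyte-like to 443 in B cell-like cells. An unnamed cluster led by mt- genes, which counts in the 511, had 4354 CP10k of them, with 133 CP10k of the nuclear members. Mural-like cells of the naive brain had 1386 CP10k of mt- genes and a median of only 2436 raw UMIs. Neutrophil-like cells of the blood were low for both genomes, with 75.3 CP10k of mt- genes. Whether the depth of a cluster bears on these values was not tested.

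**Figure D3:**
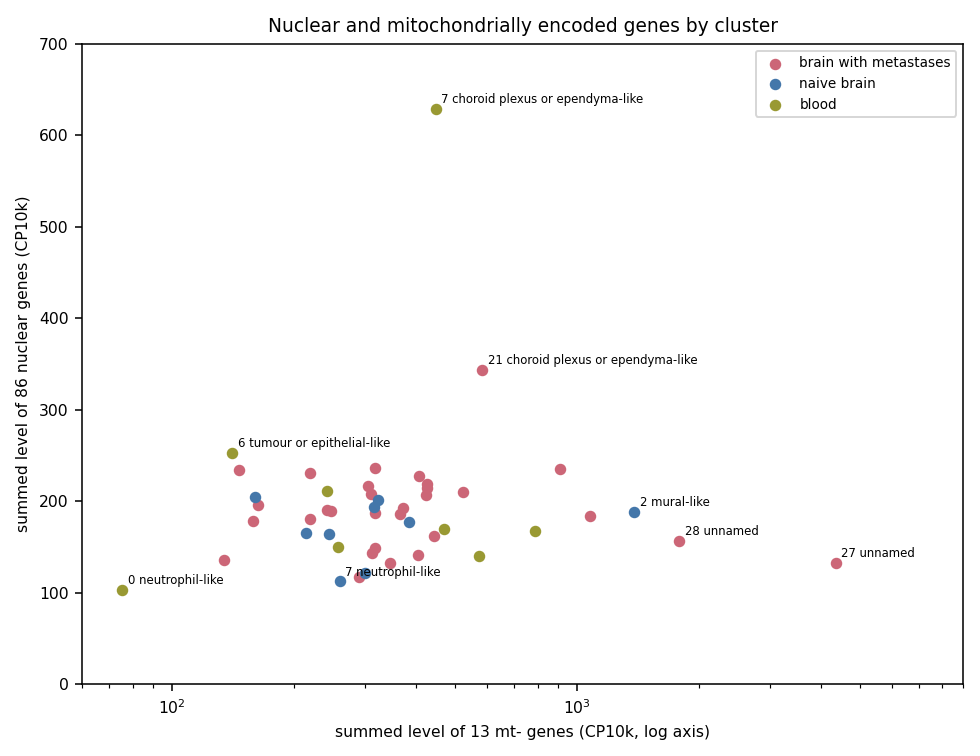
Summed level of the 86 nuclear members against that of the 13 mt- genes, 1 point per cluster of the 3 matrices, in CP10k, with a log axis for the mt- genes. Clusters with the highest mt- levels, such as the one at 4354 CP10k, are not high for the nuclear genes. Choroid plexus-like cells of the brain with metastases are high for the nuclear genes at mt- levels far below that cluster.

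In the brain with metastases the 6 restricted isoforms were highest in mural-like, plasmacytoid dendritic cell-like or choroid plexus-like cells, and Cox6b2 also stood high in fibroblast-like cells. They were left out of the clustering of the brain with metastases, as were all other members. Shares of cells with a UMI are given beside those of the largest T cell-like cluster, 539 cells with a median of 12923 corrected UMIs, as a measure of free RNA, and after each cell was thinned to 5000 UMIs.

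A single mural-like cluster led in both isoforms known for low oxygen. Ndufa4l2, a paralog of Ndufa4 that is known to respond to hypoxia, had a UMI in 86 of 89 cells (96.6%, 90.5 to 99.3) of the mural-like cluster marked by Vtn, Rgs5 and Notch3. That cluster had a median of 13713 corrected UMIs, and the share was 87.6% after thinning. The T cell-like cluster had 0 of 539 cells, which allows a share of up to 0.557%. This mural-like cluster held 69.2% of all Ndufa4l2 UMIs, and within it Ndufa4l2 had 6.11 CP10k and Ndufa4 3.91 CP10k. Ndufa4l2 thus made up 61.0% (58.2 to 63.7) of the UMIs of the pair, and 60.4% without shared droplets.

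Cox4i2, the isoform of complex IV subunit 4 known from lung and low oxygen, marked the same cells. It had a UMI in 87 of 89 of them (97.8%), in 75.3% after thinning, and in 0.186% of T cell-like cells. Its level there was 3.28 CP10k beside 7.95 for Cox4i1, so Cox4i2 supplied 29.2% of the pair. The mural-like cluster led by smooth-muscle genes had Cox4i2 in 31 of 66 cells (47.0%) at 0.724 CP10k, or 6.23% of the pair. The ubiquitous partner was thus outnumbered for Ndufa4 and not for Cox4i1.

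Cox6a2, the isoform of complex IV subunit 6A known from heart and skeletal muscle, was highest in plasmacytoid dendritic cell-like cells. This gene stands in the marker list of that type, and the cluster of 27 cells was named on its 5 other markers. Cox6a2 had a UMI in 25 of 27 cells (92.6%, 75.7 to 99.1), in 90.9% after thinning, and in 1.11% of T cell-like cells. It had 14.4 CP10k there beside 3.39 for Cox6a1, and supplied 81.0% (77.7 to 83.9) of the pair. Microglia-like cells held a lower level, with a UMI in 66 of 407 cells (16.2%) of the larger cluster and 7.89% after thinning. In the naive brain 134 of 820 microglia-like cells (16.3%) had a UMI, 9.54% after thinning, and they held 66.0% of its UMIs in that matrix.

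Choroid plexus-like cells held 3 muscle or testis isoforms. Cox8b, a muscle and brown-fat isoform of complex IV subunit 8, had a UMI in 30 of 87 cells (34.5%, 24.6 to 45.4) of the cluster, in 27.6% after thinning, and in 0.557% of T cell-like cells. These 87 cells, with a median of 13739 corrected UMIs, held 89.4% of all its UMIs in that matrix. Its level was 2.40 CP10k beside 14.9 for Cox8a, or 13.9% of the pair. The 19 choroid plexus-like cells of the blood matrix had Cox8b in 12 cells (63.2%), at 5.45 CP10k. Cox6b2, the testis isoform of subunit 6B, had a UMI in 37 of 87 choroid plexus-like cells (42.5%) and in 57 of 119 fibroblast-like cells (47.9%), against 0.928% of T cell-like cells. After thinning the order turned, with 32.6% of choroid plexus-like and 24.6% of fibroblast-like cells. It supplied 24.7% of the Cox6b1 and Cox6b2 UMIs in the choroid plexus-like cells and 16.1% in the fibroblast-like cells. Cox7a1, a muscle and brown-fat isoform of subunit 7A, was the scarcest member, with a UMI in 22 of 87 choroid plexus-like cells (25.3%), 9.93% after thinning, and in 0.742% of T cell-like cells. Cox8b was thus nearly confined to 1 cluster, while Cox6b2 had a second one.

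**Figure D4:**
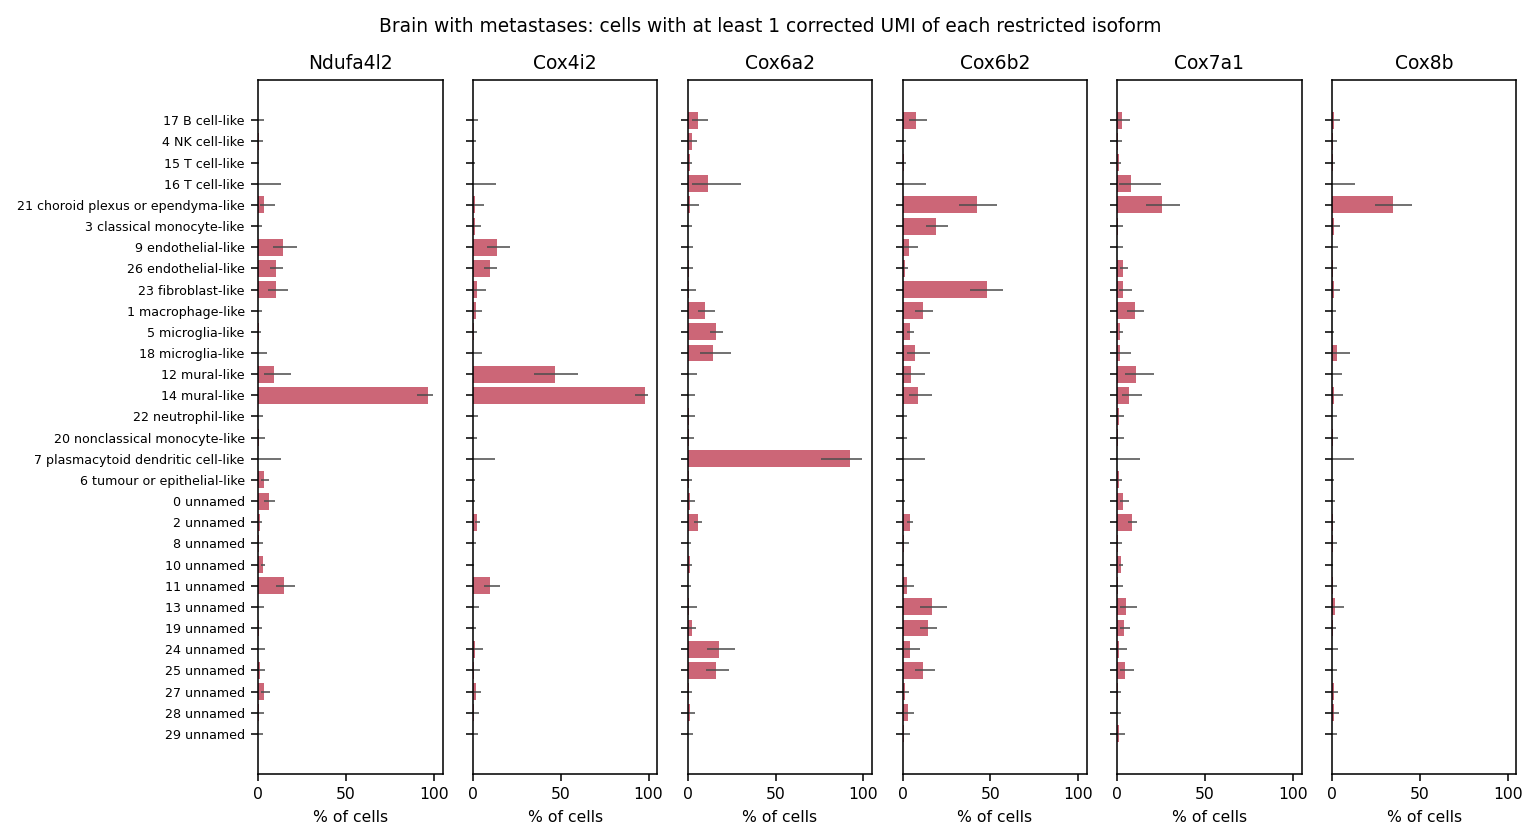
Percentage of cells of each cluster of the brain with metastases that had at least 1 corrected UMI of each restricted isoform, with 95% exact intervals for counting error. Ndufa4l2 and Cox4i2 reach 96.6% and 97.8% in 1 mural-like cluster, Cox6a2 reaches 92.6% in plasmacytoid dendritic cell-like cells, and Cox8b reaches 34.5% in choroid plexus-like cells.

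The promoters are shown for the isoforms that parted from the ubiquitous set and for ubiquitous genes of the same kind. Windows of 300 bases, 250 before and 50 after the start, came from RefSeq on GRCm38.p6 for 72 of the 86 members. Members with no window shown, among them Atp5a1, Cox4i1, Cox4i2, Cox6a2, Cox6c, Ndufa2, Ndufa4l2, Ndufaf6, Ndufb9, Ndufs1, Uqcrb, Uqcrc2 and Uqcrq, are named only. Capitals mark matches, on either strand, to motifs of factors known to act on respiratory genes, which are NRF1 (GCGCANGCG), ETS (CCGGAAG) and YY1 (AAGATGG), and to the core of the hypoxia response element (ACGTG). Each window is written 5′ to 3′ along the gene's own strand. Cox8b lies at chr7:140900397-140900696 and Cox6b2 at chr7:4753045-4753344, and both are on the minus strand. Cox6a1 lies at chr5:115348909-115349208 and Atp5g2 at chr15:102670998-102671297, also on the minus strand.
Cox8b: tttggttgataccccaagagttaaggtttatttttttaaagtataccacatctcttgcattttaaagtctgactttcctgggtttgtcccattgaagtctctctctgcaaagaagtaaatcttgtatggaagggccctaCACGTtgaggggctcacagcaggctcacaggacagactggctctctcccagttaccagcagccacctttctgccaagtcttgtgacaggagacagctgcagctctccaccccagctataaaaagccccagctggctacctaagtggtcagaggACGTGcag
Cox6b2: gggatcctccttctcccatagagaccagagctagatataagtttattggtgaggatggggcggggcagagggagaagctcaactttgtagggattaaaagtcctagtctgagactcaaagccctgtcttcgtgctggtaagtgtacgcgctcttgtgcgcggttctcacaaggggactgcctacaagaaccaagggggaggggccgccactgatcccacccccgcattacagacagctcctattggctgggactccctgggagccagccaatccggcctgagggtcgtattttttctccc
Cox6a1: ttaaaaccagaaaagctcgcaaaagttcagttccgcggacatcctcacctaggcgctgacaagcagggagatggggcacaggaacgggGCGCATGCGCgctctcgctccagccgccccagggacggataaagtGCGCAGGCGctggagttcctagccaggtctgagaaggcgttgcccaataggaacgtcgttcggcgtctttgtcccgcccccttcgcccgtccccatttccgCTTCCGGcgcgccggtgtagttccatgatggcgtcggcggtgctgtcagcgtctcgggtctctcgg
Atp5g2: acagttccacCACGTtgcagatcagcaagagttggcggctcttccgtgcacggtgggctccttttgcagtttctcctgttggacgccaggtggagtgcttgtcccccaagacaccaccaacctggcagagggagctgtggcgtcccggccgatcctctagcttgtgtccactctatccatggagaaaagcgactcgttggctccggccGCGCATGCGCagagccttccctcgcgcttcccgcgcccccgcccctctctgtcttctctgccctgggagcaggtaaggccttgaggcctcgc

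The ubiquitous Cox6a1 window holds NRF1 matches at bases 89 to 97 and, overlapping on the other strand, 90 to 98, another at bases 134 to 142, and an ETS match at bases 235 to 241. The Atp5g2 window holds NRF1 matches on both strands, at bases 209 to 217 and 210 to 218, and a hypoxia core at bases 11 to 15. The Cox8b window holds hypoxia cores at bases 140 to 144 and 293 to 297 and none of the other motifs, and the Cox6b2 window holds no match. Over the set, 20 of 72 members (27.8%) had an NRF1 match, against 7.03% of 27025 genes with a window. By group, 8 of 33 had one in complex I, 2 of 5 in complex III, 7 of 15 in complex V and 2 of 7 assembly factors. In complex IV only Cox6a1 had one, 1 of 9 ubiquitous members (11.1%). Cox8a and Cox6b1, the ubiquitous partners of Cox8b and Cox6b2, have windows that are not shown. Those windows held ETS matches and no NRF1 match. The ETS motif was in 16 members (22.2%), against 9.93% of all genes, and the YY1 motif in 12 (16.7%), against 7.28%. The hypoxia core was in 18 members (25%), close to the 21.8% of all genes. The 3 restricted isoforms with a window held no NRF1, ETS or YY1 match. A match is a run of letters in this window and was not tested as a binding site.

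Other genes of the pathway had patterns of their own. The mobile carrier and its docking subunit, Cycs and Cyc1, were highest in the tumour-marked clusters of the brain with metastases, at 4.39 and 3.25 CP10k, and lowest in the unnamed cluster of neutrophil and microglia markers, at 0.714 and 0.615. Sdhc, a membrane anchor of complex II, was highest in smooth-muscle mural-like cells, at 1.78 CP10k. AA467197, a paralog of Ndufa4 known from inflamed macrophages, reached 6.08 CP10k in the unnamed cluster led by Cxcl9. Ucp2, an inner-membrane carrier of the uncoupling protein family, had 7.63 CP10k in that same cluster. Ppargc1a, a coactivator of mitochondrial biogenesis, had 0.416 CP10k in choroid plexus-like cells and 1.36 in those of the blood matrix.

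Between the arms of the naive brain the members differed little. Ratios set the sample labelled depleted over the sample labelled control, called depleted and control here after their labels. In microglia-like cells, 686 against 134, the summed level was 123 CP10k in depleted and 118 in control, a ratio of 1.04 (1.02 to 1.06). Of 66 measured members 41 were higher and 25 lower, and 0 passed 1.5 fold, where 4.13% of all measured genes did. The median log2 ratio was 0.03, and -0.05 over all genes, and with cells classed by surface gates in place of clusters it was -0.12. The highest was Uqcrh, the hinge protein of complex III, at 4.15 CP10k in depleted and 3.20 in control.

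T cell-like and classical monocyte-like cells gave the same picture. In T cell-like cells 0 of 71 members passed 1.5 fold against 6.64% of genes, with sums of 195 CP10k in depleted and 192 in control. In classical monocyte-like cells 0 of 71 passed against 8.83%, with sums of 167 and 165 CP10k and a median of -0.01, or 0.068 without shared droplets. In NK cell-like cells 2 of 71 passed, against 14.4% of genes. These were Ndufc1, at 1.16 CP10k in depleted and 0.671 in control, and Ndufv3, at 1.16 in depleted and 2.07 in control. The summed level there was 199.5 CP10k in depleted and 209.9 in control.

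In mural-like and neutrophil-like cells more members leaned 1 way. The mural-like cluster of the naive brain was mixed, since it carried 6 endothelial, 3 fibroblast and 3 choroid plexus markers beside its 7 mural ones and had Cldn5, Ttr and Enpp2 among its leading genes. In it 68 of 71 members were lower under the label depleted. Their median was -0.16 beside 0.00 for all genes, and the summed levels were 178 CP10k in depleted and 203 in control (ratio 0.877, 0.865 to 0.89). Only Ndufa4l2 passed 1.5 fold, at 0.326 CP10k in depleted and 0.721 in control, where 8.15% of genes did. These cells also differed in depth, with medians of 1888 raw UMIs in depleted and 4575 in control, and in mt- genes, with 1543 and 1160 CP10k, whose part in the difference was not tested, nor was that of the mixture. With mt- and ribosomal protein genes left out of the denominator the median was -0.075. In neutrophil-like cells 48 of 59 members were higher, with Atp5g2, Ndufa12 and Uqcrb, 3 in all, past 1.5 fold upwards against 17.3% of genes upwards and 23.6% either way, and a median of 0.20 beside 0.11 for all genes. The sums were 120.3 CP10k in 56 depleted cells and 104 in 49 control cells, and ribosomal protein genes differed as well, with 1206 and 650 CP10k. Defined by surface gates in place of clusters, neutrophils had a median of -0.046.

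In blood the arms were close for every class compared. The T cell-like cluster of the blood carried 7 NK cell markers beside its 7 T cell markers. The summed level of T cell-like cells was 168 CP10k in depleted and 171 in control, and 1 of 71 members, Ndufs4, passed 1.5 fold where 7.88% of genes did. Its median was -0.04, or 0.032 without shared droplets. B cell-like cells had 145 and 138 CP10k, with Atp5k the 1 of 69 members past 1.5 fold beside 10.5% of genes. Classical monocyte-like cells had 207 and 217 CP10k, with 0 of 73 past 1.5 fold beside 5.29%. All these medians lay between -0.09 and 0.09. Nonclassical monocyte-like cells had 170.0 CP10k in depleted and 159.7 in control, with 1 of 69 past 1.5 fold, Ndufa5, beside 11.5% of genes. By surface gates the median of that class was -0.061, and Ndufa5 had a ratio of -0.088 in place of 0.59. Neutrophil-like cells had 102 and 104 CP10k, with 2 of 48 past 1.5 fold beside 3.54%. Those were Atp5k, at 0.446 CP10k in depleted and 0.827 in control, and Ndufb4, at 0.462 and 0.773.

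Between tissues the members leaned towards the brain with metastases. Its matrix was normalized apart from the other 2, and its cells came without arms, so ratios across matrices also carry the difference in correction. Over the naive brain, the member median was above that of all genes in each of 7 classes. In microglia-like cells 67 of 68 members were higher, beside 54.2% of all measured genes, but 0 passed 1.5 fold where 4.54% of genes did. The sums were 134 CP10k in the brain with metastases, against 122 in the naive brain, a ratio of 1.1 (1.09 to 1.11), and the median log2 ratio was 0.12 beside 0.02 for all genes. The direction was therefore shared and the size small. Atp5g2 had 5.35 CP10k in the brain with metastases, against 4.47 in the naive brain.

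Lymphoid and monocyte-like classes were alike in size. T cell-like cells had 209.6 CP10k in the brain with metastases, against 194 in the naive brain, with 60 of 71 higher and 0 past 1.5 fold beside 8.1% of genes. NK cell-like cells had 217 and 202 CP10k, with 50 of 71 higher and 1 past 1.5 fold, Ndufb6, beside 9.25%. Classical monocyte-like cells had 189.7 and 166 CP10k, with 62 of 71 higher and 1 past 1.5 fold, Ndufb2, beside 17.4%. Nonclassical monocyte-like cells had 188 and 177 CP10k, with 57 of 70 higher and 0 past 1.5 fold beside 7.22%. Of all measured genes 58.9% were higher in T cell-like, 51.6% in NK cell-like, 56.2% in classical and 46.0% in nonclassical monocyte-like cells. The all-gene medians were 0.061, 0.0095, 0.054 and -0.027 in that order. The member medians of these 4 classes lay between 0.11 and 0.15. That of classical monocyte-like cells was 0.15, and 0.24 without shared droplets, which made up 62.2% of those of the naive brain, but 0.050 with classes from marker scores and 0.064 at a clustering resolution of 2.0. That class was made up differently on the 2 sides. The cluster with metastases was led by Ccl24, F13a1 and Chil3 and that of the naive brain by Cxcl9, Fabp5 and Ms4a4c, while the Cxcl9-led cells with metastases lay in an unnamed cluster that summed to 178 CP10k.

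Endothelial-like and neutrophil-like cells had the wider differences. Endothelial-like cells, 376 in the brain with metastases, against 44 in the naive brain, had sums of 209 and 164 CP10k, a ratio of 1.27 (1.24 to 1.31). There 67 of 72 members were higher, beside 50.2% of all measured genes. Of the members 13 passed 1.5 fold upwards, beside 13.6% of genes past it upwards and 31.6% either way. Their median was 0.34 beside 0.00 for all genes. The mt- genes moved the same way, with 408 CP10k in the brain with metastases, against 244 in the naive brain, 12 of 12 higher and a median of 0.73. Cox7b, a small subunit of complex IV, had 2.07 CP10k in the brain with metastases, against 0.938 in the naive brain. Ndufa9, which helps hold the arms of complex I together, had 0.596 and 0.211 CP10k. The classes were also made up differently, since the naive cells formed 1 cluster led by Plvap and most of those with metastases lay in a cluster led by Spock2 and Slco1c1. The part of this in the ratio was not tested beyond the Plvap-led cluster of the brain with metastases, which summed to 186 CP10k. The median was 0.23 with classes from marker scores.

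In neutrophil-like cells 66 of 69 members (95.7%) were higher, where 61.7% of all measured genes were. Of these members 15 passed 1.5 fold upwards, a share close to that of all genes, with 22.8% upwards and 35.8% either way. The sums were 141 CP10k in the brain with metastases, against 113 in the naive brain, a ratio of 1.26 (1.23 to 1.28), and the median was 0.37 beside 0.19 for all genes. The median was 0.53 without shared droplets, but 0.21 with classes from marker scores, 0.23 with a pseudocount of 1 CP10k and 0.26 over members of at least 2 CP10k. The mt- genes moved the same way, with 404 CP10k in the brain with metastases, against 260 in the naive brain, and 12 of 12 higher. The class was also made up differently. The cluster with metastases was led by Stfa2l1 and G0s2 and that of the naive brain by the granule genes Ngp, Camp and Ltf, while the Camp-led cells with metastases lay in an unnamed cluster that summed to 136 CP10k. The part of these in the ratio was not tested. Ndufv1 had 0.712 CP10k in the brain with metastases, against 0.226 in the naive brain. Ndufc1, a small membrane-arm subunit of complex I, had 0.983 and 0.401 CP10k. Both of these genes belong to complex I, as did the 5 highest ratios of this class.

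Set against blood of mice with metastases, all classes but classical monocyte-like cells were higher in the brain with metastases. T cell-like cells had 209.6 CP10k in the brain and 169 in blood, with 70 of 71 members higher, 3 past 1.5 fold upwards beside 5.42% of genes upwards and 18.1% either way, and a median of 0.33 beside 0.02. Without shared droplets, 49.0% of those of the blood, the median was 0.44. The blood cluster also carried the NK cell markers named above, while NK cell-like cells formed a cluster of their own in the brain. The highest was Ndufa12, at 1.46 CP10k in the brain and 0.885 in blood. B cell-like cells had 163 and 141 CP10k, with 60 of 70 higher and 7 past 1.5 fold upwards beside 21.4% upwards and 34.1% either way. Their median was 0.27, and 0.42 without shared droplets, which made up 57.5% of those of the brain, but 0.15 with mt- and ribosomal protein genes left out of the denominator. Nonclassical monocyte-like cells had 188 and 168 CP10k, with 60 of 70 higher and 2 past 1.5 fold beside 18.6%. Of all measured genes 52.2% were higher in the brain in T cell-like, 55.9% in B cell-like and 47.2% in nonclassical monocyte-like cells. The all-gene median was 0.095 in B cell-like cells. In nonclassical monocyte-like cells it was -0.038, beside 0.18 for members. In these 3 classes 0 of 12 mt- genes were higher in the brain, with sums of 306 CP10k in the brain and 469 in blood for T cell-like, 443 and 575 for B cell-like, and 317 and 787 for nonclassical monocyte-like cells. Classical monocyte-like cells had 189.7 CP10k in the brain and 212 in blood, with 56 of 73 lower, 1 past 1.5 fold beside 28.9%, and a median of -0.14 beside -0.13 for all genes. At a clustering resolution of 2.0 the median was -0.29. In that class Atp5b went the other way, at 3.96 CP10k in the brain and 2.72 in blood.

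The widest difference was in neutrophil-like cells, where 65 of 69 members were higher in the brain with metastases, beside 55.9% of all measured genes. Of the members 37 passed 1.5 fold upwards, beside 32.7% of genes upwards and 51.6% either way. The sums were 141 CP10k in 136 cells of the brain and 103 in 966 cells of the blood, a ratio of 1.37 (1.35 to 1.39), and the median was 0.65 beside 0.14 for all genes. The complexes differed, with medians of 1.02 for complex I, 0.94 for complex III, 0.56 for complex V and 0.23 for complex IV. The 5 highest ratios were those of complex I genes of low level. Ndufa12 had 1.01 CP10k in the brain and 0.142 in blood, Ndufc2 1.1 and 0.186, and the acyl carrier protein Ndufab1 1.05 and 0.222. The abundant complex V subunit Atp5l had 5.67 CP10k in the brain and 6.28 in blood. Counting only members of at least 2 CP10k on 1 side, the median was 0.24. The mt- genes of these cells also differed, with 404 CP10k in the brain and 75.3 in blood, and the blood cells had a median of 3016 raw UMIs. The part of depth and of its correction in this difference was not tested.

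**Figure D5:**
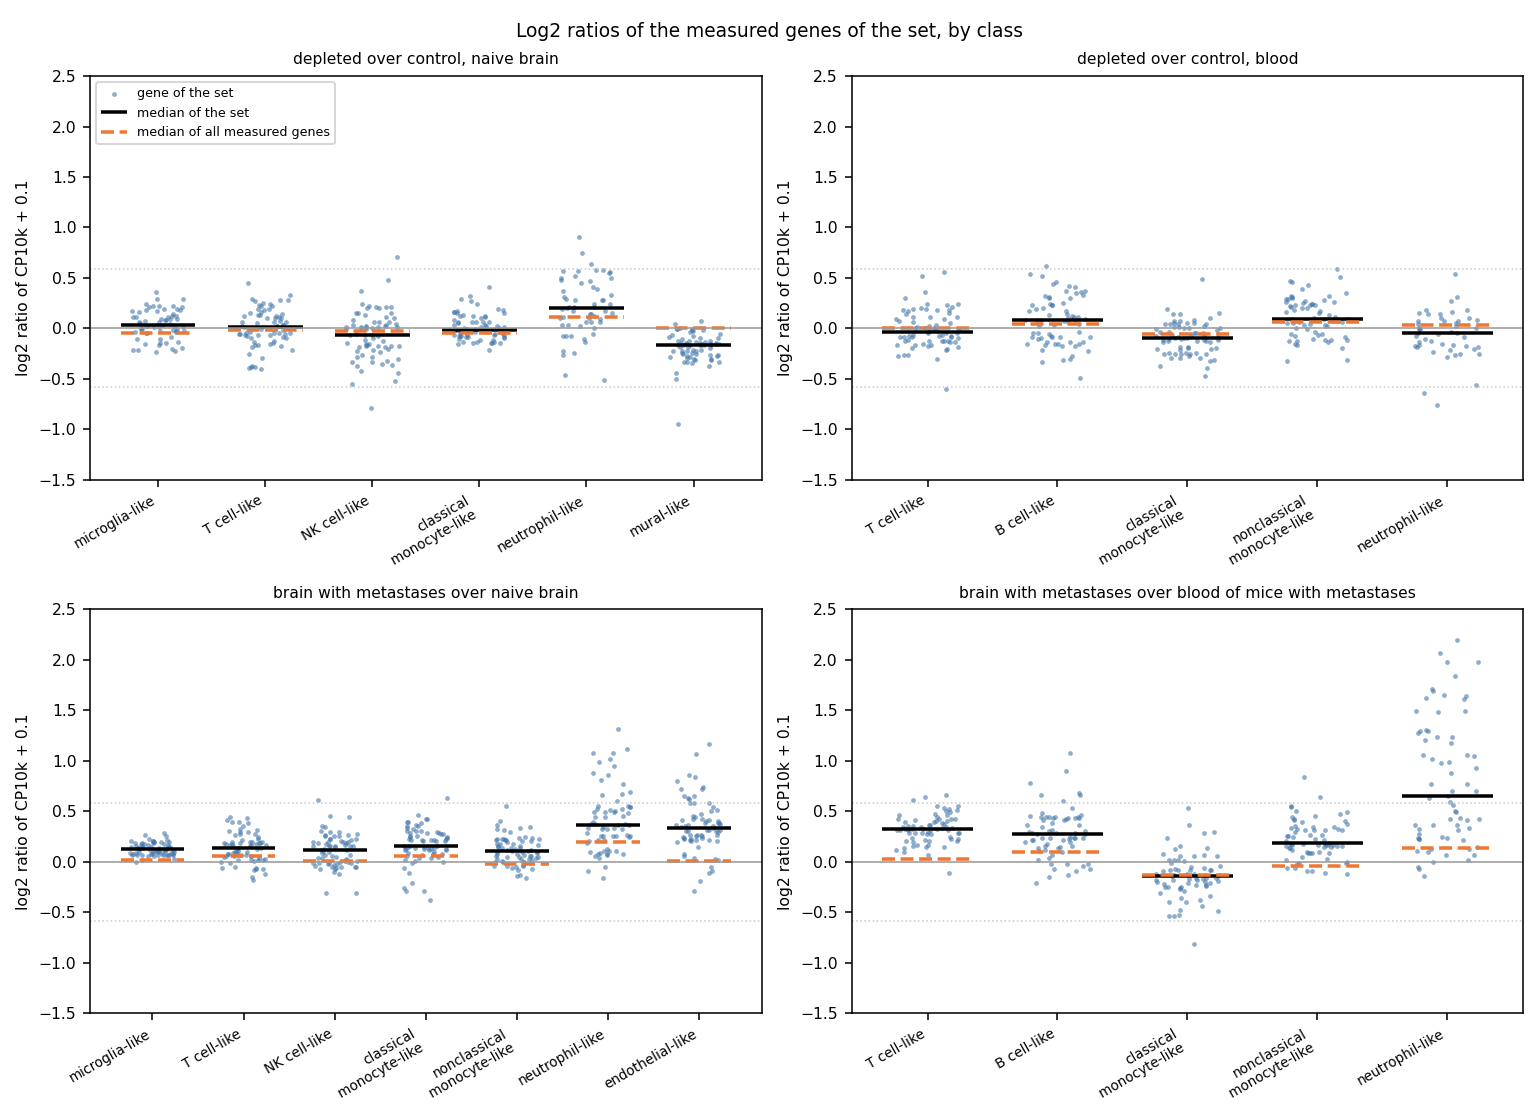
Log2 ratio of each measured member by class for the 4 comparisons (points), with the members' median (solid line), the median of all measured genes (dashed line) and 1.5 fold (dotted lines). Between arms the members lie near 0, from -0.16 in mural-like to 0.20 in neutrophil-like cells of the naive brain, while the brain with metastases over blood reaches 0.65 in neutrophil-like cells and is -0.14 in classical monocyte-like cells.

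Genes outside the set gave context for the tissue comparison. Cycs and Cyc1 were both higher in the brain with metastases than in the naive brain in all 7 classes. AA467197, the Ndufa4 paralog, was measured in 3 classes and lower past 1.5 fold in each, with log2 ratios of -2.11 in classical monocyte-like, -1.08 in nonclassical monocyte-like and -1.42 in neutrophil-like cells. The classical monocyte-like and neutrophil-like classes were made up differently on the 2 sides, as given above. The unnamed Cxcl9-led cluster with metastases, in which AA467197 stood high, was not part of this comparison. The part of this in the ratios was not tested. Ucp2 was lower in 4 of 7 classes, from -0.40 in NK cell-like to 0.60 in endothelial-like cells. The measured hypoxia markers of a list that includes Ldha and Slc2a1 were higher in all 7 classes too, and past 1.5 fold for 3 of 3 in NK cell-like and endothelial-like cells and 0 of 2 in microglia-like cells. No member of the oxidative phosphorylation set passed 1.5 fold downwards in any class of that comparison.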

How the data were processed

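RNA was read in 1 droplet run of brain and blood cells. Per the submitters' processing notes, Cell Ranger 3.1, Seurat 3.1.1 and mm10 were used. Which step used which is not given in the sources used here. The authors deposited the natural log of 1 plus a depth-corrected UMI count per gene and cell for each of 3 matrices, corrected separately. After the log was undone, 100% of the values were whole numbers within 1e-06. The plan had assumed raw counts, and corrected UMIs were used in their place. The deposited annotation gave the raw UMI count, cluster, arm and surface gates of each cell of the naive brain and the blood, and 67 of its columns were not used. All deposited cells were kept, and no doublet caller was run, since raw counts per gene were not used.

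The authors' own clusters served for blood and naive brain. The brain with metastases was clustered without the members and the mt- genes by the Leiden method at resolution 1.0 on 20 neighbours, from 30 principal components of 2000 variable genes (igraph 0.11.9, scanpy 1.11.5). A cluster was named on at least 3 markers at 2 fold or more over the other cells. Classes were compared where each side held at least 30 cells. Blood microglia-like and tumour-like cells and tumour-like and mural-like naive brain cells were not compared between tissues or, in blood, between arms, because their class goes against the tissue label or mixes cell types. UMIs were summed per class and scaled to 10000, with a pseudocount of 0.1 CP10k. The text names members among the 5 highest and 5 lowest ratios of a class with at least 50 UMIs over both sides, members that vary most between clusters, every isoform of a pair, and the members behind small counts, which were chosen after their values were seen. The members and lists were chosen with earlier results of these data known. Promoter windows came from RefSeq. A single member entered sums and counts and is not reported here by name. The ratios and counts were tested on simulated data. Alternatives changed shared droplets, cell filter, pseudocount, minimum level, denominator, averaging, class definition and clustering resolution.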

Additional observations from a re-analysis of the deposited data

Results flagged for a closer look

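In 2 classes the members' median ratio between arms had opposite signs in the 2 tissues. In T cell-like cells the median log2 ratio of the sample labelled depleted over the sample labelled control was 0.01 for naive brain and -0.04 for blood, a difference of 0.053, and the blood value was 0.032 without shared droplets. In neutrophil-like cells it was 0.20 for naive brain and -0.05 for blood, a difference of 0.25, but by surface gates both medians were negative. Each arm of a tissue is 1 sample, so neither difference was tested.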

How the results depend on the processing

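Of 248 alternative values of the medians and summed ratios, 182 moved by less than the spread or interval used to judge them, and 66 moved further. Of 2180 alternative values of named members, 2048 stayed, 129 moved and 3 reversed. These were Uqcrb between arms of naive neutrophils, at -0.15 by surface gates, and Ndufa5 between arms of blood nonclassical monocytes, at -0.088 by those gates and -0.022 by the earlier gates. Values that moved are given below as member medians unless called a ratio to other cells. Without shared droplets, naive arms gave 0.068 for classical monocytes and blood arms 0.032 for T cells, metastases over naive brain 0.24 for classical monocytes and 0.53 for neutrophils, and metastases over blood 0.44 for T and 0.42 for B cells. Ratios to other cells were then 1.83 for choroid plexus, 0.662 and 0.692 for microglia and neutrophils with metastases, 0.648 and 0.580 for those of the naive brain, and 0.547 for blood neutrophils. With a denominator lacking mt- and ribosomal protein genes, naive arms gave 0.064 for classical monocytes and -0.075 for mural cells, metastases over naive brain 0.15 for microglia and 0.40 for endothelium, and metastases over blood 0.39 for T cells, 0.15 for B cells and 0.14 for nonclassical monocytes. Ratios to other cells were then 1.65, 0.632, 0.626, 0.594, 0.588 and 0.464 in the order above. With marker-score classes, naive arms gave 0.13 for microglia and 0.046 for neutrophils, blood arms 0.029 for T cells, metastases over naive brain 0.18, 0.050, 0.21 and 0.23 for microglia, classical monocytes, neutrophils and endothelium, and metastases over blood -0.20 and 0.12 for classical and nonclassical monocytes. Ratios were then 2.03 for choroid plexus and 0.672 and 0.711 for neutrophils with metastases and of the naive brain. Surface gates gave -0.12, -0.078 and -0.046 for naive microglia, classical monocytes and neutrophils, and 0.027, -0.13, -0.061 and -0.18 for blood T cells, classical and nonclassical monocytes and neutrophils. The earlier gates gave 0.027 and -0.0019 for blood T cells and nonclassical monocytes. A pseudocount of 1 gave 0.12 and -0.13 for naive arms of neutrophils and mural cells, 0.075, 0.12, 0.23 and 0.24 for microglia, classical monocytes, neutrophils and endothelium over the naive brain, and 0.23, 0.18 and 0.13 for T cells, B cells and nonclassical monocytes over blood. A minimum of 2 CP10k gave 0.26 for neutrophils over the naive brain and 0.21, 0.15 and 0.24 for B cells, nonclassical monocytes and neutrophils over blood. Per-cell means gave ratios of 1.72 for choroid plexus and 0.580 for blood neutrophils. Resolution 0.5 gave 0.15 for microglia over the naive brain. Resolution 2.0 gave 0.15, 0.064 and 0.24 for microglia, classical monocytes and endothelium, and -0.29 for classical monocytes over blood. The cause of these moves was not tested. In 6 cases a setting left under 30 cells on a side and was not run: NK cells and neutrophils of the naive arms without shared droplets, naive mural cells by scores and by gates, and classical monocytes at resolution 0.5 in both tissue comparisons. Low members are limited by depth, since a member at 0.5 CP10k has few UMIs in small classes.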
